A study of Mus musculus with 15 samples.

Results

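The genes described here encode the cytosolic translation initiation factors (eIFs) and elongation factors (eEFs), with the kinases, binding proteins and methyltransferases named after them. They were chosen by gene symbol alone, as the symbols that begin with Eif and a digit up to 6 or with Eef and 1 or 2. Symbols of pseudogenes (-ps) and of antisense transcripts (os) were left out, as were Eif2s3x, Eif2s3y and Eif2ak2, and at least 10 reads were required in 3 or more of the 15 count tables. This gave 66 genes of the 50554 in each table, and all 66 passed the filter on low counts that preceded the tests. The gene just inside the limit was Eif4a3l1, with a median of 15 reads and 10 or more reads in 10 tables, and the gene just outside was Eef1akmt3, with a median of 2 reads and 10 or more reads in 2 tables.

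Bulk RNA was sequenced from mouse bone marrow-derived dendritic cells, antigen-presenting cells grown from marrow for 9 days with the cytokine GM-CSF. All mice carried the tamoxifen-inducible recombinase CreERT2 and 1 floxed Mysm1 allele, which tamoxifen deleted in blood-forming cells; MYSM1 is a chromatin-binding deubiquitinase. In Δ/DN mice the other allele encoded a catalytically inactive protein, and in Δ/+ mice it was wild type. Cells were held for 18 h with 10 ng/mL lipopolysaccharide (LPS), the bacterial surface molecule sensed by TLR4, or without it (US, unstimulated). There were 4 Δ/DN LPS, 3 Δ/+ LPS, 4 Δ/DN US and 4 Δ/+ US libraries from 8 cultures, numbered 1 to 4 within each genotype. Culture 4 of Δ/+ gave a US library only. Whether the cultures came from different mice was not stated, so the p-values describe these cultures only. They rest on a spread pooled over all 15 libraries. The main fit did not use which LPS and US libraries share a culture.

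Translation starts when eIF4E binds the mRNA cap and, with the scaffold eIF4G and the helicase eIF4A, recruits the small ribosomal subunit carrying eIF3, eIF1, eIF1A, eIF5 and the initiator tRNA bound to eIF2. The complex scans to a start codon, where eIF2 is released bound to GDP, and eIF2B recharges it with GTP. The best known controls act on the cap and on eIF2: the 4E-binding proteins hold eIF4E until mTOR phosphorylates them, and kinases such as PERK (Eif2ak3) and GCN2 (Eif2ak4) phosphorylate eIF2 and so block its recharging. In elongation eEF1A brings aminoacyl-tRNA and eEF2 moves the ribosome, and eEF2 kinase (Eef2k) inactivates eEF2. In dendritic cells, activation is known to change protein synthesis at these control points, largely through phosphorylation, which mRNA counts do not show.

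The libraries held 37256651 to 104041282 counted reads. The labels disagree on which letter code of mice is which genotype: the series' design text has it one way and the sample fields the other. Genotypes are given as on the samples, and every genotype difference would turn round under the other reading. Mysm1 itself does not settle this, since each genotype keeps 1 undeleted allele: it stood at 45.9, 42.0, 28.1 and 48.9 CPM (read counts scaled to a common library size) in Δ/DN US libraries, against 46.3, 51.3, 49.9 and 54.1 CPM in Δ/+ US libraries (adjusted p = 0.213). Dendritic markers were present in every group, with a summed level of 8 genes between 4574 and 11868 CPM. None of the 8 differed between genotypes at adjusted p < 0.05. Much of the sum was Cd74, at 2819 to 7739 CPM, whereas Flt3 had 0.754 to 2.66 CPM and Batf3 3.89 to 14.6 CPM. Macrophage genes were present in every group too, with a summed level of 6 genes between 1083 and 1488 CPM. Δ/DN culture 3 stood apart in its US library, where 7SL RNA, a small structural RNA, took 10.4% of the reads against 3.41% to 5.66% in the other US libraries. Library names fall into sets 2 and 3, of unstated meaning. Set 3 holds Δ/DN cultures 3 and 4 and Δ/+ culture 4, and the model had a term for it. Culture 4 of Δ/+ gave no LPS library, so all Δ/+ LPS libraries are of set 2. For the genotype difference with LPS the term thus assumes the same set effect in every group. A gene is called higher or lower where edgeR's quasi-likelihood test gave a Benjamini-Hochberg adjusted p under 0.05 over all 20865 genes tested.

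Per kilobase of mRNA, averaged over the means of the 4 groups, Eef1a1, the main eEF1A gene, stood highest at 2208 CPM per kb. It was followed by Eef2 at 405, the helicase Eif4a1 at 388, the start-codon fidelity factor Eif1 at 239 and Eif5a, which helps ribosomes through difficult peptide bonds, at 165 CPM per kb. The lowest of the 63 members with a length were Eef2k at 0.593 and Eif5a2, the second eIF5A gene, at 0.938 CPM per kb. The regulators stood low in the order: the kinases Eif2ak4 and Eif2ak3 had 4.46 and 3.99 CPM per kb, and the 4E-binding genes Eif4ebp1, Eif4ebp2 and Eif4ebp3 had 5.51, 5.93 and 8.23 CPM per kb. The 66 genes together took 0.967% to 1.16% of all reads in Δ/DN LPS libraries and 0.997% to 1.03% in Δ/+ LPS libraries, against 1.20% to 1.40% in Δ/DN US libraries and 1.38% to 1.46% in Δ/+ US libraries. Both LPS groups lay below both US groups in this share, and the genotypes overlapped within each treatment. Some members have near-identical copies: reads assigned to Eif4a-ps4 amounted to 28.5% to 34.7% of those of Eif4a1, so the value of Eif4a1 is uncertain, as are those of Eif3j1 and Eif3j2 and of the Eif4a3-like genes. The share was smaller for Eif3s6-ps2 (4.50% to 6.07% of Eif3e), Eef1a1-ps1 (2.62% to 4.92% of Eef1a1), Eif1-ps1 (2.44% to 3.87% of Eif1) and Eif5al3-ps (0.561% to 1.61% of Eif5a).

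Promoter sequences from RefSeq (GRCm38.p6, 250 bases before to 50 after a gene's start) matched 51 of the 66 genes, and the E-box letters CACGTG, the core motif bound by MYC among other factors, occurred in 14 of the 51 (27.5%), against 10.8% of the 12829 tested genes with a promoter and 8.09% of all 27025 genes. The letters read the same on both strands. The letters TGATGCAA, of the kind bound by ATF4, were searched on both strands and occurred in 0 of the 51 genes' windows, so that none overlapped an E-box there, and in 0.795% of the tested genes. The following stretches, with 1 CACGTG of each in capitals and written 5′ to 3′ on the gene's strand, show the box in 3 genes that were lower in Δ/DN cells without LPS (Eif4e, Eif4g1 and Eif5a2) and in the gene with the largest LPS difference (Eef2k). All 4 genes lie on the plus strand; Eif4e and Eif5a2 each have a further CACGTG in the window, and that of Eif5a2 stands in lower case near the end of its stretch.
Eif4e (chr3:138527174-138527239): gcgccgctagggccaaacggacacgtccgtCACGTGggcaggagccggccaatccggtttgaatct
Eif4g1 (chr16:20672643-20672708): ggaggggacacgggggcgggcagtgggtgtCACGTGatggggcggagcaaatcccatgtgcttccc
Eif5a2 (chr3:28781105-28781170): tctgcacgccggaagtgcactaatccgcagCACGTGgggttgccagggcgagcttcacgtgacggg
Eef2k (chr7:120842770-120842830): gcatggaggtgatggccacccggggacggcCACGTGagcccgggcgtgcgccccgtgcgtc
The box was in 3 of the 11 matched genes lower in Δ/DN cells without LPS, in 5 of the 14 higher and in 3 of the 13 lower with LPS in Δ/DN cells.

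Without LPS, 14 of the 66 genes were lower in Δ/DN than in Δ/+ cells and 0 were higher, where 5.45% of all tested genes were lower and 5.01% higher. The differences were small, with a median of -0.15 on the log2 scale over the 66 genes against 0.01 over all genes, and 55 of the 66 values lay below 0. Of the 14 genes, 12 were grouped under stages of initiation. They included the start-codon factors Eif1 and Eif5, the eIF2 subunit Eif2s2, the eIF2B subunits Eif2b1 and Eif2b3, and the eIF3 subunits Eif3d, Eif3j1 and Eif3j2. With them were Eif4e, Eif4e2, Eif4g1 and Eif4g2, grouped with the cap-binding complex. These roles hold 9, 7, 14 and 13 of the 66 genes, so most of the list belongs to them and the count of 12 shows no focus on initiation. Eif5a2 is the second gene of eIF5A, which is named for initiation and also acts in elongation. The other was Eef1e1, a scaffold protein of the aminoacyl-tRNA synthetase complex in spite of its name. For 16 genes every Δ/DN US library lay below every Δ/+ US library and for 1 (Eif4e3) above, where 6.2% and 6.28% of all tested genes did so. In bulk RNA, fewer cells of a type and less RNA per cell cannot be told apart.

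Among the 9 scanning and start-codon genes, Eif5, which makes eIF2 hydrolyse GTP at the start codon, had the smallest p. It stood at 169, 159, 212 and 190 CPM in Δ/DN US libraries, against 240, 260, 229 and 314 CPM in Δ/+ US libraries. All 4 Δ/DN libraries lay below all 4 Δ/+ libraries, and the log2 difference was -0.58 ± 0.09 (SE), adjusted p = 0.0043. Eif1, which keeps the scanning ribosome from starting at poor codons, had 203, 184, 256 and 188 CPM in Δ/DN US libraries, against 285, 276, 262 and 391 CPM in Δ/+ US libraries. The groups again did not overlap, although the highest Δ/DN value, in culture 3, came close to the lowest Δ/+ value, and the log2 difference was -0.60 ± 0.12, adjusted p = 0.0101. Of the other 7 genes of this role none was called; their values included -0.28 for Eif1a and 0.44 for Eif2d, a factor that can deliver tRNA without GTP.

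In the eIF2 and eIF2B group 3 of 7 genes were lower. Eif2b1, the eIF2Bα subunit through which phosphorylated eIF2 acts, had 16.8, 16.8, 17.7 and 18.2 CPM in Δ/DN US libraries, against 20.2, 21.9, 23.0 and 25.5 CPM in Δ/+ US libraries. The Δ/DN libraries were tightly grouped below every Δ/+ library (log2 difference -0.42 ± 0.08, adjusted p = 0.00749). Eif2b3, the eIF2Bγ subunit, averaged 9.83 ± 0.447 CPM in Δ/DN and 13.9 ± 1.00 CPM in Δ/+ US libraries (SD, n = 4 each). Eif2s1, the eIF2α subunit that the kinases phosphorylate, was not called, with 71.0, 66.4, 87.2 and 71.0 CPM in Δ/DN and 81.1, 79.9, 90.7 and 91.1 CPM in Δ/+ US libraries. Its groups overlapped through Δ/DN culture 3. The kinases Eif2ak3 and Eif2ak4 had log2 differences of 0.10 ± 0.14 and -0.16 ± 0.09, and neither was called.

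Of the 14 eIF3 genes, 3 were lower. Eif3j1 and Eif3j2 encode near-identical copies of the loosely bound eIF3j, so reads cannot be assigned to one copy with confidence. Eif3j1 had 59.6, 58.5, 72.6 and 59.8 CPM in Δ/DN US libraries, against 76.3, 80.3, 82.4 and 100.4 CPM in Δ/+ US libraries. The groups did not overlap (log2 difference -0.47 ± 0.09, adjusted p = 0.00872). Eif3d, the subunit that can itself bind caps, averaged 74.8 ± 4.61 CPM in Δ/DN and 94.3 ± 8.41 CPM in Δ/+ US libraries (SD, n = 4 each). The 11 others ranged from -0.25 to 0.05 on the log2 scale.

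Of the 13 genes grouped with the cap-binding complex, 4 were lower. The scaffold Eif4g1 had 376, 355, 421 and 403 CPM in Δ/DN US libraries, against 449, 498, 508 and 562 CPM in Δ/+ US libraries. Every Δ/DN library lay below every Δ/+ library (log2 difference -0.40 ± 0.09, adjusted p = 0.0158). The cap-binding protein Eif4e had 54.2, 52.5, 61.2 and 59.1 CPM in Δ/DN US libraries, against 63.2, 73.6, 67.4 and 76.2 CPM in Δ/+ US libraries. Here too the groups did not overlap, with a smaller log2 difference of -0.32 ± 0.09, adjusted p = 0.0402. The helicase Eif4a1 had 536, 514, 778 and 567 CPM in Δ/DN US libraries, against 653, 693, 740 and 811 CPM in Δ/+ US libraries. Culture 3 was the second highest of the 8, and the gene was not called (adjusted p = 0.0861).

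Of the 7 elongation factors Eef1e1 was lower and the other 6 were not called, and of the 6 modifiers 0 were called. Eef1a1 had 3200, 3617, 3899 and 3005 CPM in Δ/DN US libraries, against 3652, 3479, 3846 and 3750 CPM in Δ/+ US libraries. Eef2 had 1034, 1166, 1089 and 1025 CPM in Δ/DN US libraries, against 1107, 1130, 1251 and 1321 CPM in Δ/+ US libraries. Both overlapped between genotypes. Eif5a had a log2 difference of -0.02 ± 0.14, while Eif5a2 averaged 4.39 ± 0.620 CPM in Δ/DN and 6.41 ± 0.555 CPM in Δ/+ US libraries (SD, n = 4 each) and was lower (adjusted p = 0.0284). Among the 4E-binding proteins Eif4ebp1 had 13.1, 13.4, 13.97 and 14.1 CPM in Δ/DN US libraries, against 17.4, 16.3, 14.4 and 19.7 CPM in Δ/+ US libraries. The groups did not overlap, but the adjusted p of 0.0609 missed the threshold.

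**Figure D1:**
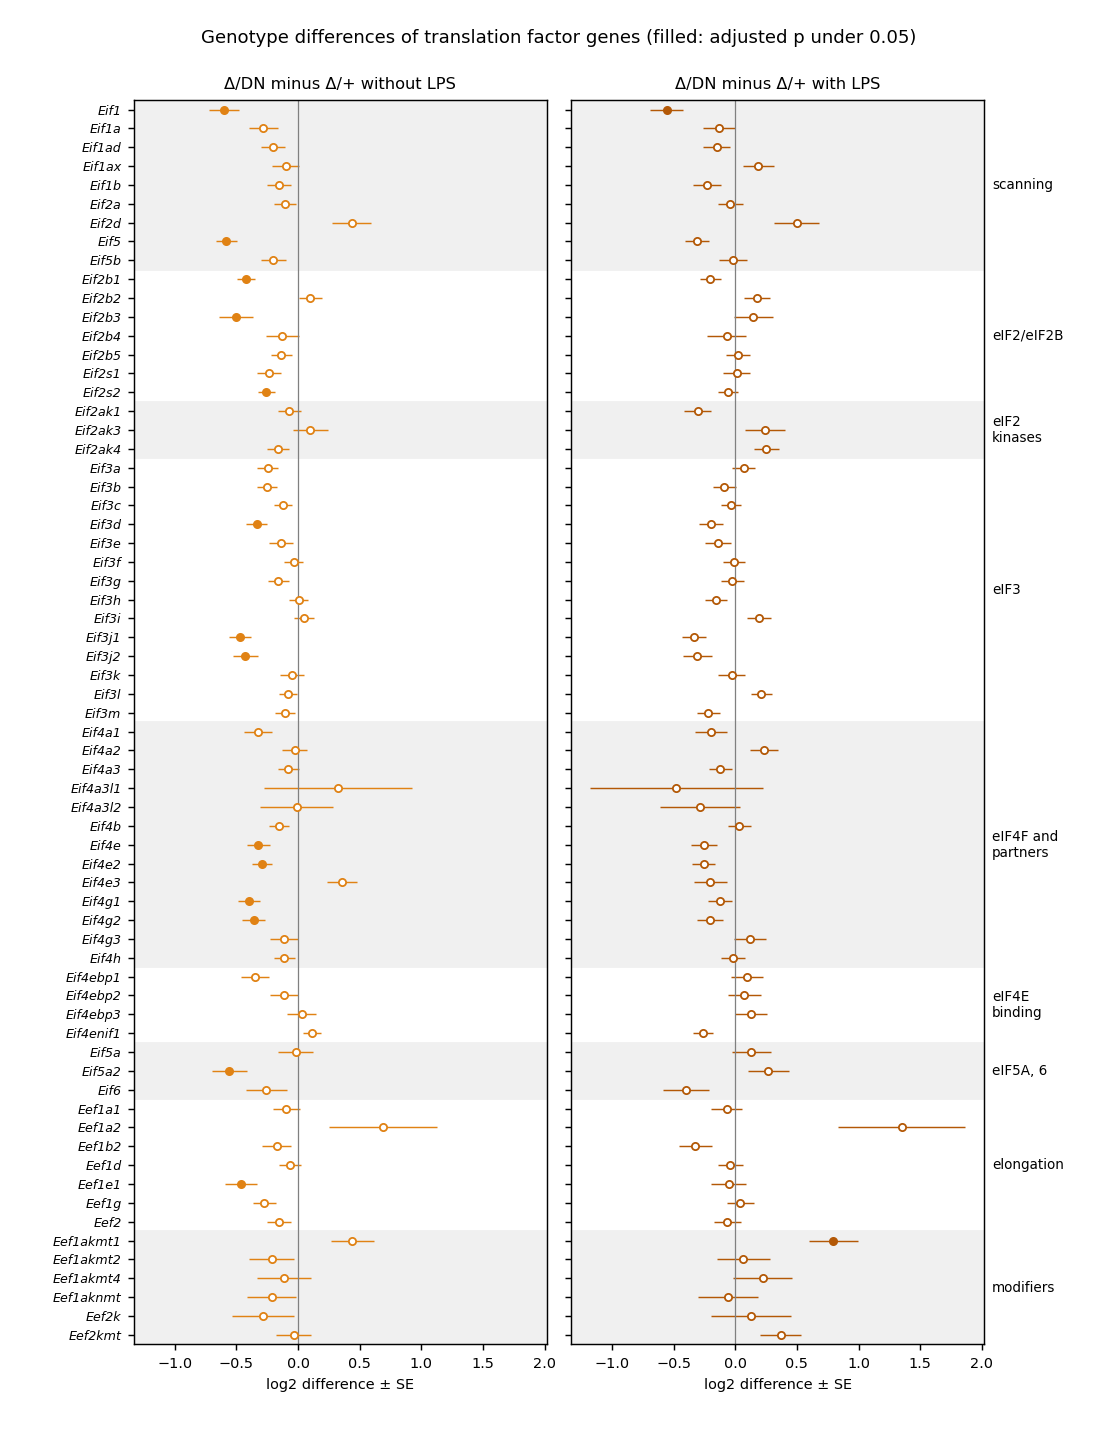
Log2 difference between Δ/DN and Δ/+ cells ± SE for each of the 66 genes, grouped by role, without LPS (left) and with LPS (right). Filled points have an adjusted p under 0.05: 14 lie below 0 on the left, and 1 on each side of 0 (Eef1akmt1 above, Eif1 below) on the right.

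Each of the 14 genes kept a log2 difference below 0 in every refit that left out 1 library of the compared groups. This is no check on the direction, since the genes were picked as lower in the same libraries. The count of 14 depended on single libraries. It was 1 without Δ/+ US replicate 4, when Eif5 alone was called, 4 without Δ/+ US replicate 2, and 6, 4 and 5 without Δ/DN US replicates 1, 2 and 4. Calls fell over all tested genes as well, from 1138 lower to 120 and 378 without Δ/+ US replicates 4 and 2. Without Δ/DN US replicates 1, 2 and 4 they were 702, 252 and 527. Eif5 kept its call in all 8 such refits, and Eif1, Eif2b1 and Eif3j1 in 7 of 8; without Δ/+ US replicate 4 their adjusted p-values were 0.0839, 0.0561 and 0.0772. Eif4g1 lost its call without Δ/+ US replicates 2 or 4 (0.0501, 0.111) or Δ/DN US replicate 2 (0.0764), and Eif4e lost its own without Δ/+ US replicates 2 or 4 (0.106, 0.193) or Δ/DN US replicates 1, 2 or 4 (0.0972, 0.149, 0.0771). Without Δ/DN cultures 3 and 4 the count was 12 lower and 1 higher (Eif2d), where 940 of all tested genes were lower and 477 higher. Within library set 2 alone it was 11 lower, where 861 of all tested genes were. On library totals without normalization factors 5 stayed lower (Eif1, Eif3j1, Eif4g1, Eif4g2 and Eif5) and Eif4e3 was higher. There 539 of all tested genes were lower and 844 higher.

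Genes of cell division moved with the genotype in the same libraries. Of 8 proliferation genes 6 were higher in Δ/DN than in Δ/+ cells without LPS, and their summed level was 599 to 1020 CPM in Δ/DN US libraries, against 386 to 568 CPM in Δ/+ US libraries. The 8 neutrophil genes summed to 86.3 to 949 CPM (median 131 CPM) in Δ/DN US libraries, against 50.5 to 116 CPM (median 86.1 CPM) in Δ/+ US libraries. Of the 8, Csf3r alone was called, higher in Δ/DN cells. The 3 progenitor genes summed to 16.7 to 40.1 CPM against 16.6 to 19.6 CPM, with Cd34 and Myb called higher in Δ/DN cells. Of 6 macrophage genes, C1qa was called higher and Cd68 lower. The 6 mast cell and basophil genes summed to 1.27 to 12.5 CPM in Δ/DN US libraries, against 1.06 to 3.62 CPM in Δ/+ US libraries, and 0 were called. The erythroid genes summed to 0.704 to 1.53 CPM in Δ/DN US libraries, against 0.0716 to 0.518 CPM in Δ/+ US libraries, with Hbb-bs and Hbb-bt called higher in Δ/DN cells. T cell, B cell and erythroid genes each summed to under 3 CPM in every library. The part of these cells in the lower translation factor levels was not tested.

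**Figure D2:**
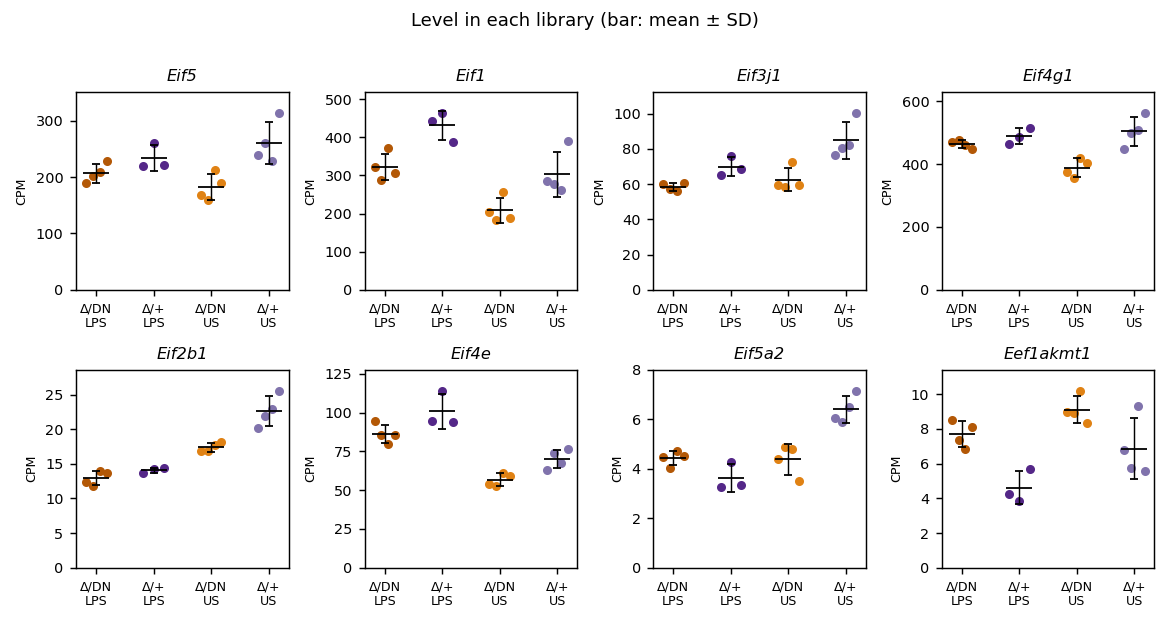
Level (CPM) of 8 genes in each library, with the mean ± SD as bars; groups run Δ/DN LPS, Δ/+ LPS, Δ/DN US, Δ/+ US. For Eif5, Eif1, Eif3j1, Eif4g1, Eif2b1, Eif4e and Eif5a2 the Δ/DN US libraries all lie below the Δ/+ US libraries, and for Eef1akmt1 the Δ/DN LPS libraries all lie above the Δ/+ LPS libraries.

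With LPS fewer of these genes were called between genotypes, in a comparison with 3 Δ/+ libraries, all of library set 2. In Δ/DN cells 1 of 66 was lower (Eif1) and 1 was higher (Eef1akmt1, a methyltransferase of eEF1A), against 3.23% and 5.37% of all tested genes. With culture as a block (limma) 3 were lower and 1 was higher, where 859 and 1155 of all tested genes were. Eif1 had 322, 289, 371 and 308 CPM in Δ/DN LPS libraries, against 443, 463 and 388 CPM in Δ/+ LPS libraries. The groups did not overlap (log2 difference -0.55 ± 0.13, adjusted p = 0.025), so Eif1 was the single gene called lower in Δ/DN cells under both conditions. Eef1akmt1 had 8.49, 7.35, 6.82 and 8.12 CPM in Δ/DN LPS libraries, against 4.27, 3.87 and 5.71 CPM in Δ/+ LPS libraries. All Δ/DN values were above all Δ/+ values (log2 difference 0.79 ± 0.20, adjusted p = 0.0294). Eif1 lost its call without Δ/+ LPS replicates 1 or 2 (adjusted p 0.0864, 0.123) or Δ/DN LPS replicate 2 (0.0923), and Eef1akmt1 without replicates 1 or 2 of either LPS group (0.0574 to 0.145). Without LPS, Eef1akmt1 had a log2 difference of 0.44 ± 0.17 and was not called.

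The core factors named here were not called with LPS: the log2 differences were -0.25 ± 0.10 for Eif4e, -0.20 ± 0.13 for Eif4a1, 0.01 ± 0.11 for Eif2s1, -0.07 ± 0.13 for Eef1a1, -0.06 ± 0.11 for Eef2 and 0.13 ± 0.16 for Eif5a. The regulators Eif2ak3, Eif2ak4, Eif4ebp1 and Eef2k had 0.24 ± 0.17, 0.25 ± 0.10, 0.09 ± 0.13 and 0.13 ± 0.33, all on the higher side in Δ/DN cells and none called. The median over the 66 genes was -0.04, against 0.01 over all genes. For 12 genes every Δ/DN LPS library lay below every Δ/+ LPS library, and for 5 above, where 12% and 12.6% of all tested genes did so. Both eIF3j genes and Eif3d were among the 12. Proliferation genes differed here too, with 5 of 8 higher and Pcna lower in Δ/DN cells and summed levels of 549 to 888 CPM in Δ/DN and 412 to 488 CPM in Δ/+ LPS libraries.

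LPS changed more of the genes than genotype did, in both directions, as it did across the transcriptome. In Δ/DN cells 19 of 66 were higher with LPS and 16 lower, where 23.1% and 25.1% of all tested genes were. In Δ/+ cells 13 were higher and 23 lower, where 22.4% and 25.3% of all tested genes were. Both LPS comparisons use their own US libraries: 12 genes were higher in both genotypes, 16 were lower in both, and none was higher in one and lower in the other. The members' medians were 0.04 in Δ/DN and -0.08 in Δ/+ cells, beside -0.09 and -0.08 over all genes. In Δ/DN cells every LPS library lay above every US library for 15 genes and below for 14, where 20.1% and 20.8% of all tested genes did so, and in Δ/+ cells for 14 and 25, where 24.3% and 27.8% did so. Without culture 1 of Δ/DN the count of higher genes in Δ/DN cells was 12, where 4114 of all 20570 tested genes were higher. The 6 LPS response genes tested as a check (Il6, Il12b, Tnf, Cd40, Acod1 and Nos2) were higher with LPS in both genotypes.

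Which genes count as higher with LPS rests on the scaling. The main values use TMM normalization, which assumes that most genes do not change; its factors were 0.734 to 0.9397 in LPS libraries and 1.04 to 1.33 in US libraries. On library totals alone the median of all genes moved to -0.67 in Δ/DN and -0.73 in Δ/+ cells. In Δ/DN cells 2 of 66 genes were called higher and 53 lower, and in Δ/+ cells 2 and 55. Of all 20865 tested genes 2361 were higher and 11185 lower in Δ/DN cells, and 2317 and 11211 in Δ/+ cells. All genes called lower with LPS on the TMM scale were lower on library totals too, 16 in Δ/DN and 23 in Δ/+ cells. Library totals shifted the 66 genes by medians of -0.58 in Δ/DN and -0.65 in Δ/+ cells. Lower genes were thus moved further below 0, so this is no check on the lower calls. Of those called higher, 13 of 19 in Δ/DN and 9 of 13 in Δ/+ cells had a value below 0. Statements on higher genes below are therefore relative to the other genes.

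The largest LPS differences were in genes that modify elongation factors. Eef2k, the kinase that inactivates eEF2, had 0.851, 0.769, 0.885 and 2.197 CPM in Δ/DN LPS libraries, against 5.36, 7.40, 5.07 and 9.20 CPM in Δ/DN US libraries. In Δ/+ cells it had 0.832, 0.967 and 0.785 CPM with LPS, against 7.004, 6.74, 6.50 and 10.5 CPM without. Every LPS library lay below every US library, and the log2 differences were -2.58 ± 0.28 in Δ/DN (adjusted p = 2.63e-06) and -2.99 ± 0.32 in Δ/+ cells (adjusted p = 2.37e-06), which are levels 5.98 and 7.96 times lower with LPS. Eef1aknmt, which methylates the N-terminus and a lysine of eEF1A, had 1.22, 2.41, 1.502 and 3.00 CPM in Δ/DN LPS libraries, against 8.47, 9.89, 10.4 and 10.6 CPM in Δ/DN US libraries. The Δ/+ cells had 1.87, 2.03 and 1.85 CPM with LPS, against 9.62, 10.6, 10.3 and 13.1 CPM without. The groups were far apart in both genotypes (log2 differences -2.27 ± 0.21 and -2.43 ± 0.24). Eef2kmt, a methyltransferase of eEF2, was lower as well, by -0.91 ± 0.14 in Δ/DN and -1.31 ± 0.16 in Δ/+ cells.

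Of the 6 modifier genes, 3 were lower with LPS in Δ/DN and 5 in Δ/+ cells. Eef1akmt4 was higher in Δ/DN cells (0.84 ± 0.21, adjusted p = 0.00403), with 8.58, 8.12, 7.06 and 6.06 CPM in Δ/DN LPS libraries, against 4.25, 2.80, 5.52 and 4.09 CPM in Δ/DN US libraries. In Δ/+ cells it had 0.50 ± 0.23 and was not called, and on library totals it had 0.27 in Δ/DN and -0.16 in Δ/+ cells.

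Of the elongation factors themselves, Eef2 had 1385, 1379, 1292 and 1258 CPM in Δ/DN LPS libraries, against 1034, 1166, 1089 and 1025 CPM in Δ/DN US libraries. It was called higher in Δ/DN cells (0.30 ± 0.10, adjusted p = 0.0166) and not in Δ/+ cells (0.21 ± 0.10, adjusted p = 0.116), and on library totals it was below 0 in both (-0.28 and -0.44). Eef1a1 had 4411, 4454, 4057 and 4020 CPM in Δ/DN LPS libraries, against 3200, 3617, 3899 and 3005 CPM in Δ/DN US libraries; in Δ/+ cells it had 4405, 4493 and 4591 CPM with LPS, against 3652, 3479, 3846 and 3750 CPM without. LPS libraries lay above US libraries in both genotypes, with a call in Δ/DN cells (0.30 ± 0.11, adjusted p = 0.033) and none in Δ/+ cells (0.28 ± 0.12, adjusted p = 0.0695), and values of -0.27 and -0.37 on library totals. The Δ/DN calls were lost without either of US replicates 1 and 4, for Eef2 with adjusted p = 0.0566 and 0.0528 and for Eef1a1 with 0.117 in both cases, and for Eef1a1 also without US replicate 2 (0.0587) or LPS replicates 1 or 2 (0.0671, 0.0812). Eef1d and, in Δ/+ cells, Eef1g, subunits of the eEF1B exchange factor, were lower, by -0.34 ± 0.09 and -0.36 ± 0.10 for Eef1d and by -0.41 ± 0.10 for Eef1g.

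Of the 3 eIF2 kinase genes among the 66 (the fourth, Eif2ak2, is not one of them), 2 were lower with LPS in both genotypes. PERK (Eif2ak3), the kinase of endoplasmic reticulum stress, had 9.71, 11.4, 8.70 and 12.6 CPM in Δ/DN LPS libraries, against 29.8, 33.7, 23.0 and 32.5 CPM in Δ/DN US libraries. In Δ/+ cells it had 9.63, 7.42 and 10.2 CPM with LPS, against 27.6, 26.6, 28.2 and 29.4 CPM without. Every LPS value was below every US value, and the log2 differences were -1.49 ± 0.14 (adjusted p = 1.08e-06) and -1.63 ± 0.16 (adjusted p = 1.29e-06). GCN2 (Eif2ak4), the kinase of amino acid shortage, had 21.1, 25.6, 20.7 and 23.7 CPM in Δ/DN LPS libraries, against 41.0, 42.7, 36.2 and 42.7 CPM in Δ/DN US libraries. The Δ/+ cells had 21.9, 19.0 and 18.2 CPM with LPS, against 46.6, 47.6, 47.6 and 43.5 CPM without. The groups did not overlap in either genotype (-0.84 ± 0.09 and -1.25 ± 0.10). HRI (Eif2ak1), known for its part in heme shortage, had -0.17 ± 0.09 and 0.07 ± 0.10 and was not called.

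The subunits of eIF2, which these kinases phosphorylate, and of its exchange factor eIF2B divided. Of the eIF2B subunits, Eif2b1, Eif2b3 and Eif2b4 were lower with LPS in both genotypes, Eif2b3 most, by -0.69 ± 0.14 in Δ/DN and -1.34 ± 0.16 in Δ/+ cells, while Eif2b2 and Eif2b5 were not called. Of the eIF2 subunits, Eif2s2 was higher in both on the TMM scale (0.43 ± 0.07 and 0.23 ± 0.08) but below 0 on library totals (-0.15 and -0.42), and its Δ/+ call was kept in 3 of 7 refits without 1 library (lost without LPS replicates 1 or 3 or US replicates 1 or 2). It had 97.2, 91.5, 82.4 and 93.6 CPM in Δ/DN LPS libraries, against 66.8, 69.0, 66.7 and 68.0 CPM in Δ/DN US libraries, which did not overlap. Eif2s1 had 105, 92.3, 95.2 and 89.5 CPM in Δ/DN LPS libraries, against 71.0, 66.4, 87.2 and 71.0 CPM in Δ/DN US libraries. It was called higher in Δ/DN cells (0.37 ± 0.09) and not in Δ/+ cells (0.13 ± 0.10), where it had 87.9, 87.4 and 102 CPM with LPS, against 81.1, 79.9, 90.7 and 91.1 CPM without; on library totals it had -0.20 and -0.53.

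At the cap, 2 of the 3 4E-binding genes were lower with LPS. Eif4ebp1 had 7.24, 6.12, 6.88 and 8.28 CPM in Δ/DN LPS libraries, against 13.1, 13.4, 13.97 and 14.1 CPM in Δ/DN US libraries. In Δ/+ cells it had 6.69, 6.84 and 5.28 CPM with LPS, against 17.4, 16.3, 14.4 and 19.7 CPM without. No LPS library reached a US library (-0.94 ± 0.11, adjusted p = 8.11e-06, and -1.39 ± 0.13, adjusted p = 6.4e-07). Eif4ebp2 had 21.1, 20.6, 22.7 and 25.4 CPM in Δ/DN LPS libraries, against 42.0, 51.3, 40.2 and 51.2 CPM in Δ/DN US libraries. The Δ/+ cells had 21.6, 19.5 and 18.3 CPM with LPS, against 40.2, 45.3, 47.5 and 62.0 CPM without. The levels were 2.07 times lower in Δ/DN and 2.36 times lower in Δ/+ cells (-1.05 ± 0.12 and -1.24 ± 0.13). Eif4ebp3 was not called in either genotype (0.05 ± 0.11 and -0.05 ± 0.12), and Eif4enif1, the transporter of eIF4E, was higher in both (0.41 ± 0.07 and 0.78 ± 0.08), with -0.18 and 0.13 on library totals. The Δ/+ libraries of Eif4enif1 stood at 59.4, 61.1 and 59.6 CPM with LPS, against 33.6, 34.3, 34.7 and 37.3 CPM without.

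Eif4e stood higher with LPS relative to other genes, at 94.3, 85.7, 79.7 and 85.3 CPM in Δ/DN LPS libraries, against 54.2, 52.5, 61.2 and 59.1 CPM in Δ/DN US libraries. In Δ/+ cells it had 94.2, 114 and 94.1 CPM with LPS, against 63.2, 73.6, 67.4 and 76.2 CPM without. LPS and US libraries did not overlap (0.61 ± 0.09, adjusted p = 5.98e-05, and 0.54 ± 0.10, adjusted p = 0.000356), whereas on library totals the values were 0.03 and -0.11. Eif4g2, a relative of eIF4G that lacks the eIF4E-binding region, had 1243, 1256, 1260 and 1287 CPM in Δ/DN LPS libraries, against 689, 669, 871 and 772 CPM in Δ/DN US libraries. The Δ/+ cells had 1301, 1456 and 1365 CPM with LPS, against 866, 919, 902 and 1046 CPM without. The gap was clear in both (0.76 ± 0.09 and 0.60 ± 0.10), with 0.18 and -0.05 on library totals. Eif4e3, an eIF4E relative, was higher by 0.45 ± 0.12 in Δ/DN and 1.01 ± 0.13 in Δ/+ cells, with -0.13 and 0.35 on library totals. In Δ/+ libraries it had 39.9, 38.6 and 39.3 CPM with LPS, against 20.3, 18.8, 21.5 and 18.7 CPM without, a tight pair of groups far apart. The helicase partner Eif4b and the second helicase Eif4a2 were lower in both genotypes, Eif4b by -0.49 ± 0.08 and -0.68 ± 0.09 and Eif4a2 by -0.26 ± 0.10 and -0.52 ± 0.11. Eif4a1 was not called in either (0.21 ± 0.11 and 0.09 ± 0.12; -0.36 and -0.57 on library totals).

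Among the remaining factors Eif6 and Eif1a were higher with LPS on both scales. Eif6, which keeps the large ribosomal subunit from joining too early, had 105, 95.98, 102 and 91.9 CPM in Δ/DN LPS libraries, against 42.6, 42.0, 85.2 and 45.3 CPM in Δ/DN US libraries. In Δ/+ cells it had 113, 125 and 121 CPM with LPS, against 55.6, 59.8, 58.5 and 68.1 CPM without. Culture 3 of Δ/DN was the US library nearest to the LPS libraries; the log2 differences were 0.91 ± 0.16 and 1.05 ± 0.18, and 0.35 and 0.39 on library totals. Eif1a, a scanning factor, had 133, 118, 117 and 108 CPM in Δ/DN LPS libraries, against 61.4, 57.5, 82.6 and 62.0 CPM in Δ/DN US libraries. The Δ/+ cells had 117, 128 and 129 CPM with LPS, against 68.3, 72.7, 79.5 and 92.2 CPM without. LPS libraries lay above US libraries throughout (0.86 ± 0.11 and 0.72 ± 0.12), with 0.29 and 0.06 on library totals, the second of these not called.

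The eIF3 subunits moved little: 3 of 14 were higher with LPS in Δ/DN cells (Eif3c, Eif3d and Eif3e), and in Δ/+ cells 3 were higher (Eif3c, Eif3e and Eif3h) and 3 lower (Eif3a, Eif3g and Eif3l), with log2 differences from -0.38 to 0.41. Eif3c, a core subunit, had 230, 251, 230 and 231 CPM in Δ/DN LPS libraries, against 168, 179, 181 and 180 CPM in Δ/DN US libraries. The higher calls of eIF3 subunits all had values below 0 on library totals. Eif5a had 455, 448, 375 and 483 CPM in Δ/DN LPS libraries, against 315, 336, 448 and 396 CPM in Δ/DN US libraries, and 342, 352 and 462 CPM in Δ/+ LPS libraries, against 329, 336, 428 and 383 CPM in Δ/+ US libraries. LPS and US values overlapped, and neither comparison was called. Eif5a2 was lower with LPS in Δ/+ cells (-0.81 ± 0.16) and had 0.02 ± 0.14 in Δ/DN cells.

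**Figure D3:**
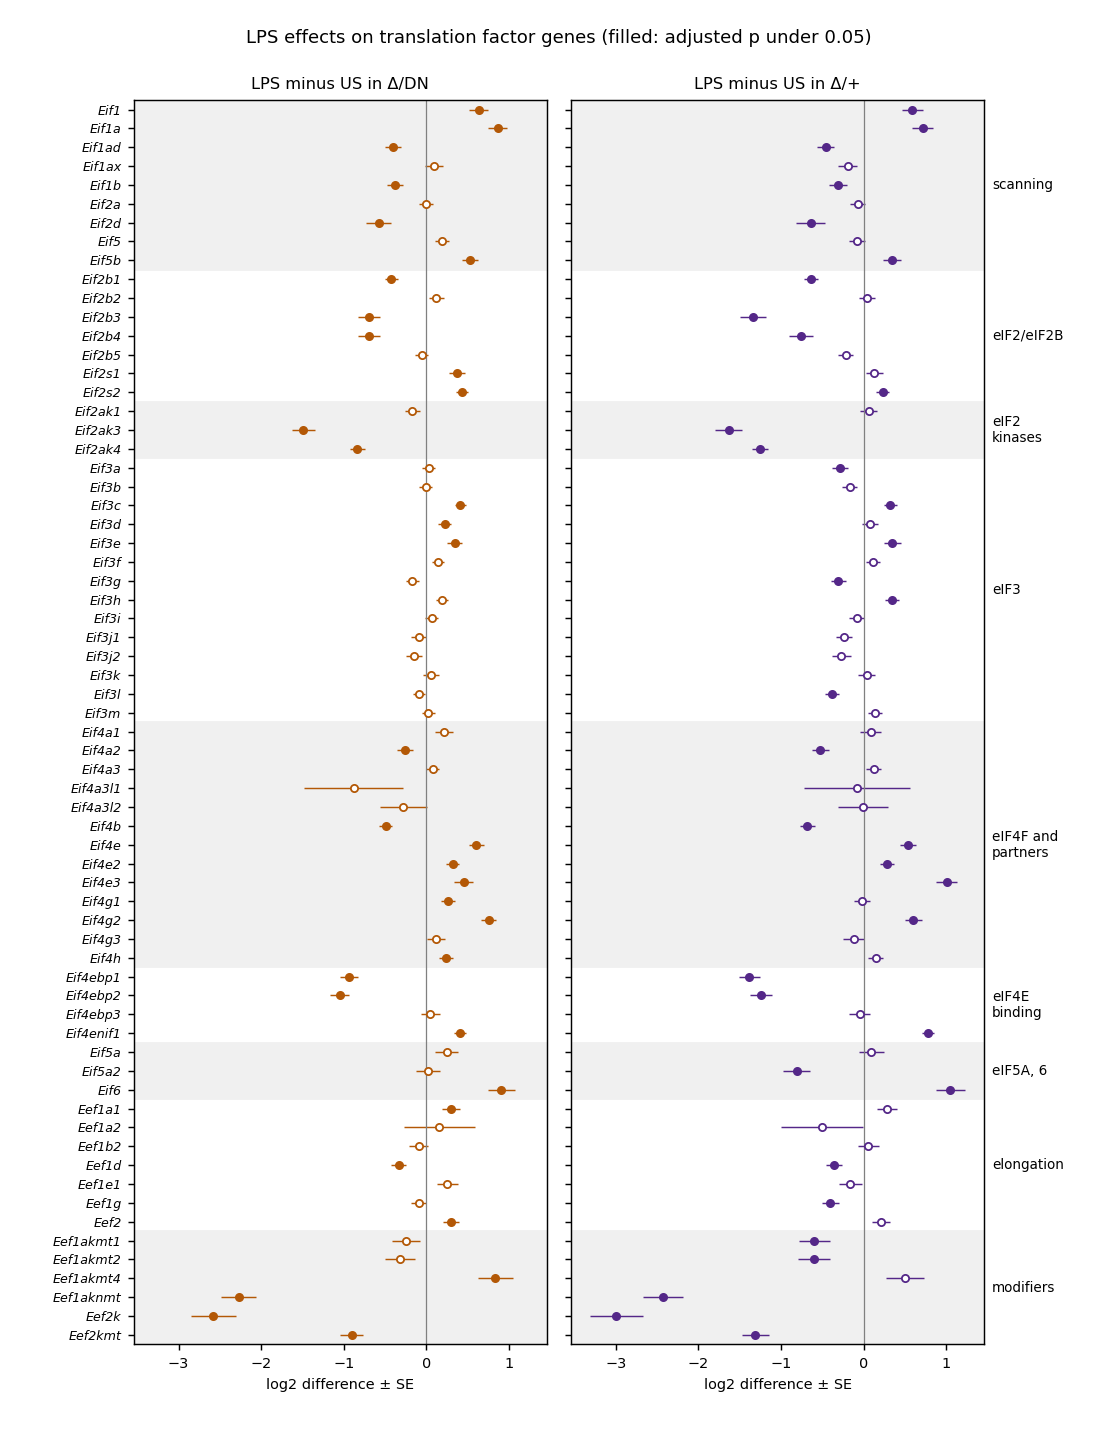
Log2 difference between LPS and US cells ± SE for each of the 66 genes, grouped by role, in Δ/DN (left) and Δ/+ (right) cells on the TMM scale. Filled points have an adjusted p under 0.05; Eef2k and Eef1aknmt lie farthest below 0 in both panels and Eif6, at 0.91 and 1.05, farthest above.

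**Figure D4:**
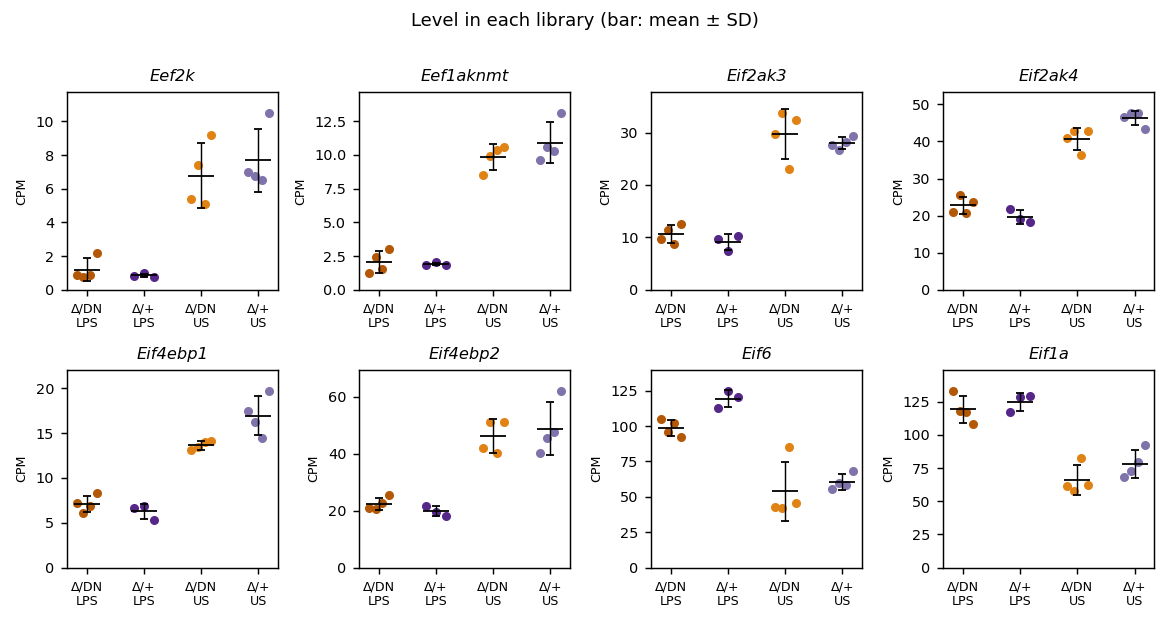
Level (CPM) of 8 genes in each library, with the mean ± SD as bars; groups run Δ/DN LPS, Δ/+ LPS, Δ/DN US, Δ/+ US. In both genotypes the LPS libraries lie below the US libraries for Eef2k, Eef1aknmt, Eif2ak3, Eif2ak4, Eif4ebp1 and Eif4ebp2, and above them for Eif6 and Eif1a.

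None of the 66 genes had an LPS effect called different between genotypes in the main edgeR fit, where 0% of all tested genes were called higher and 0.00479% lower. Of the 66 differences 54 lay above 0, with a median of 0.14, against 0.02 over all genes. They use the same US libraries as the genotype comparison without LPS. The smallest adjusted p among the 66 was 0.256. An unadjusted p under 0.05 was found for 11 of the 66 and for 1873 of all 20865 tested genes. DESeq2 called 1 of the 66, Eif5a2. With culture as a fixed term in edgeR, 112 of all tested genes were called higher and 44 lower, and 0 of the 66. The interaction values of the regulators were 0.41 ± 0.40 for Eef2k, 0.14 ± 0.21 for Eif2ak3, 0.42 ± 0.13 for Eif2ak4 and 0.45 ± 0.17 for Eif4ebp1, so the smaller LPS drop of Eif2ak4 and Eif4ebp1 in Δ/DN cells was not shown to differ. The core factors had 0.07 ± 0.13 (Eif4e), 0.13 ± 0.17 (Eif4a1), 0.24 ± 0.14 (Eif2s1), 0.15 ± 0.20 (Eif5a), 0.02 ± 0.16 (Eef1a1) and 0.09 ± 0.14 (Eef2). A call in one genotype and not in the other, as for Eef2 or Eif2s1, does not in itself show a difference between them. For Eif5a2 such a difference was called by DESeq2 and not in the main fit.

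Pairs of related factors shifted against each other within libraries, a measure that does not depend on library scaling. Per kilobase, Eif4g2 exceeded Eif4g1 by 0.99 to 1.123 on the log2 scale in Δ/DN LPS libraries, against 0.47 to 0.64 in Δ/DN US libraries, and by 1.00 to 1.18 in Δ/+ LPS libraries, against 0.42 to 0.54 in Δ/+ US libraries. The ratio was thus higher with LPS in every library of both genotypes. The ratio of Eif2ak3 to Eif2ak4 was lower with LPS, at -0.66 to -0.33 in Δ/DN LPS libraries against -0.07 to 0.24 in Δ/DN US libraries, while in Δ/+ cells the ranges met at their edges (-0.78 to -0.25 with LPS, against -0.26 to 0.02 without). The ratio of Eif4e3 to Eif4e separated the genotypes without LPS, at -0.28 to 0.08 in Δ/DN US libraries against -0.998 to -0.61 in Δ/+ US libraries. With LPS the genotypes overlapped in it. These ratios were read from the data and were given no test.

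**Figure D5:**
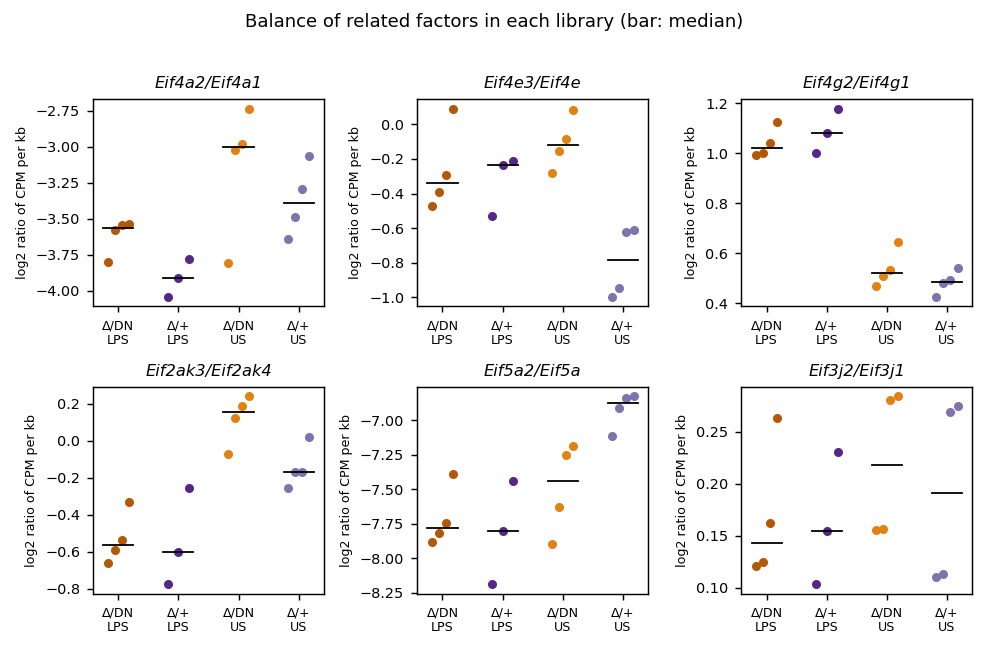
Log2 ratio of CPM per kb for 6 pairs of related genes in each library, with the median as a bar; groups run Δ/DN LPS, Δ/+ LPS, Δ/DN US, Δ/+ US. Eif4g2 over Eif4g1 is higher in all LPS than in all US libraries, and Eif4e3 over Eif4e is higher in the Δ/DN US than in the Δ/+ US libraries.

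Around the factors, 60 other genes of translation were followed. Without LPS 2 were higher in Δ/DN than in Δ/+ cells, Pdcd4, an inhibitor of eIF4A (0.76), and Cyfip2 (0.98), and 7 were lower: the recycling ATPase Abce1 (-0.46), the release factor Gspt1 (-0.31), the helicase Ddx3x (-0.35), Abcf1 (-0.30), Gigyf2 (-0.27), Dph2 (-0.43) and the S6 kinase Rps6kb1 (-0.30); of all tested genes 5.01% were higher and 5.45% lower. With LPS 3 were higher (Akt1s1, Pdcd4 and Rps6ka1) and Ppp1r15b was lower in Δ/DN cells, where 5.37% and 3.23% of all tested genes were. In Δ/DN cells 18 of the 60 were higher with LPS and 23 lower, where 23.1% and 25.1% of all tested genes were, and in Δ/+ cells 13 and 28, where 22.4% and 25.3% were. Of the higher ones, 9 in Δ/DN and 8 in Δ/+ cells had a value below 0 on library totals. The lower ones, which that scale moves further down, all stayed lower. Denr, which recycles ribosomes and helps them restart, had the largest rise, averaging 174.9 ± 7.22 CPM in Δ/DN LPS (n = 4) and 211.7 ± 12.5 CPM in Δ/+ LPS libraries (SD, n = 3), against 48.0 ± 6.82 CPM in Δ/DN US and 44.7 ± 5.61 CPM in Δ/+ US libraries (n = 4 each). Its log2 differences were 1.87 in Δ/DN and 2.26 in Δ/+ cells, and 1.30 and 1.61 on library totals.

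The phosphatase subunits that reverse eIF2 phosphorylation were higher with LPS, where the kinase genes Eif2ak3 and Eif2ak4 were lower and Eif2ak1 was not called: Ppp1r15a by 1.46 in Δ/DN and 1.08 in Δ/+ cells, and Ppp1r15b by 1.46 and 1.68, and both remained called higher on library totals. Larp1, which binds mRNAs of the translation machinery, was higher by 1.47 and 1.34. The eIF4E kinases Mknk1 and Mknk2 were lower in both genotypes, with -1.08 and -1.41 for Mknk1. Of the 9 hypusine and diphthamide enzymes, which modify eIF5A and eEF2, 5 were lower in both genotypes, among them Dph2 by -1.02 and -1.13, and Dhps was higher by 0.56 and 0.38, below 0 on library totals. Of 9 mitochondrial translation factors 5 were lower with LPS and none was higher in either genotype.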

How the data were processed

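RNA was depleted of rRNA and made into libraries with a KAPA RiboErase kit, per the labels' protocols. The authors deposited raw read counts per gene, made with Trimmomatic 0.33, HISAT2 2.2.1 and featureCounts per the submitters' processing notes; strand use and multi-mapping are not given in the sources used here. Levels are CPM, counts scaled to library size, after TMM normalization (edgeR 4.0.16, R 4.3.3), and length-scaled levels use GENCODE M21 mRNA lengths, since some deposited lengths far exceed any mRNA of the gene.

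Genes passing edgeR's filter (minimum count 10) were fitted together over all 15 libraries by edgeR's quasi-likelihood test, with group and library set as terms and Benjamini-Hochberg adjustment over 20865 genes; ± is the standard error unless SD is stated. The fit was tested on simulated data. Alternatives were DESeq2 1.42.0, culture as a block, other scalings, other filters and left-out libraries. The culture block was fitted with limma 3.58.1 for genotype differences. For LPS effects and their difference it was a fixed term in edgeR. The members and lists were chosen with earlier results of these data known. Values per library are given for up to 5 called genes per direction with the smallest p, and for 10 regulators and core factors. Pseudogene names ending in -ps with a number were left out too. Names tie the LPS and US libraries of 7 cultures, so they pair by design. Their deviations from group means correlated at 0.0643 to 0.4283. The main fit had no culture term, so its LPS p-values ignore this pairing.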

Additional observations from a re-analysis of the deposited data

Results flagged for a closer look

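In 7 of the 78 groups of 4 libraries examined, 1 library stood apart from the other 3 by a gap that took most of the group's range; chance alone gives about 5%. Without LPS, Δ/DN culture 3 was highest for Eif6 (85.2 CPM, the others 42.0 to 45.3 CPM) and for Eif3j1 (72.6 CPM, the others 58.5 to 59.8 CPM), and it is the library with 10.4% of its reads from 7SL RNA. Δ/DN culture 1 without LPS was lowest for Eif3c (167.7 CPM, the others 179 to 181 CPM). With LPS, Δ/DN culture 2 was highest for Eif3c (250.6 CPM, the others 229.7 to 231 CPM) and Δ/DN culture 1 for Eif4a1 (714.6 CPM, the others 676 to 682 CPM). Eef2k was highest in Δ/DN culture 4 with LPS (2.197 CPM, the others 0.769 to 0.885 CPM) and in Δ/+ culture 4 without LPS (10.49 CPM, the others 6.50 to 7.004 CPM). Both libraries belong to library set 3. That set also holds Δ/DN culture 3 (0.885 CPM with LPS, 5.07 CPM without) and Δ/DN culture 4 without LPS (9.20 CPM).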

How the results depend on the processing

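On library totals without normalization factors, an alternative added after the data were seen, the LPS counts were 2 higher and 53 lower in Δ/DN (median -0.54) and 2 and 55 in Δ/+ cells (median -0.73). Of all 20865 tested genes 11185 were lower in Δ/DN and 11211 in Δ/+ cells. On that scale the sign turned for 30 of the 66 genes in Δ/DN and 24 in Δ/+ cells, among them 13 of 19 and 9 of 13 called higher. Of the gene values followed through every alternative it turned in Δ/DN cells for Eef1a1 (-0.27), Eef2 (-0.28), Eif2s1 (-0.20), Eif2s2 (-0.15), Eif3c (-0.17), Eif4a1 (-0.36) and Eif5a (-0.32), and in Δ/+ cells for Eef1a1 (-0.37), Eef2 (-0.44), Eif2s1 (-0.53), Eif4a1 (-0.57), Eif4e (-0.11), Eif4g2 (-0.0504) and Eif5a (-0.56). The genotype counts without LPS were 1 higher and 5 lower, the members' median with LPS was 0.12, and Mysm1 had LPS differences of -0.82 in Δ/DN and -0.88 in Δ/+ cells.

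Leaving out 1 library or culture gave 0 to 1 higher and 1 to 20 lower genes for genotype without LPS, 0 to 3 and 0 to 4 for genotype with LPS, and 12 to 24 higher genes for LPS in Δ/DN cells; Mysm1 ranged from -0.35 to -0.24 for genotype with LPS and from -0.37 to -0.10 for LPS in Δ/DN cells. Over all tested genes the same refits gave 120 to 2138 lower for genotype without LPS and 15 to 1281 lower with LPS. For LPS in Δ/DN cells they gave 4109 to 5037 higher. Without Δ/DN cultures 3 and 4, 1 gene was higher for genotype without LPS, and Mysm1 had -0.31 for genotype with LPS and -0.31 for LPS in Δ/DN cells (-0.29 within library set 2). With the replicate block by number, 3 genes were higher without LPS, and 3 higher and 3 lower with LPS; with the replicate block by culture, 3 were lower with LPS. Over all tested genes the block by number gave 2079 higher without LPS, and 2230 higher and 1579 lower with LPS. DESeq2 gave 2 higher and 4 lower with LPS, where 1831 and 1186 of all tested genes were. It gave 1 for the difference of LPS effects, where 86 of all tested genes were higher and 32 lower. The fit without the library set term gave 0 lower with LPS, where 454 of all tested genes were. Without mitochondrial and small structural RNA genes the members' mean share was 1.42% in Δ/DN US, 1.53% in Δ/+ US and 1.09% in Δ/+ LPS libraries. The cause of these shifts was not tested. Depth limited Eif4a3l1, with at most 28 reads in a library.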

Other observations

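Eef1a2, the eEF1A gene of muscle and nerve, was high in 1 Δ/DN culture under both conditions. It had 29.98 CPM with LPS and 31.8 CPM without in Δ/DN culture 1, where the other 3 Δ/DN cultures had 8.68 to 17.4 CPM with LPS and 7.605 to 12.6 CPM without. In Δ/+ libraries it had 6.55 to 9.03 CPM with LPS and 7.22 to 11.8 CPM without. The gene was not called in any comparison.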
